A study of Mus musculus with 10 samples.

Results

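The 6 genes described here, Gm4791, Gm45261, Gm47775, 9230102O04Rik, 1110017D15Rik and Gm1113, carry only the symbol of a gene prediction or of a RIKEN cDNA clone. They were taken by symbol from the 32285 genes of the deposited tables, because earlier results of these libraries had placed them among the transcripts that differ most between the hair cells (HCs) of the 2 inner ear organs. The difference between cochlear HCs (cHCs) and vestibular HCs (vHCs) chose them, so for these 6 genes it is given as a description with no test. Tests of them are given only for contrasts that did not choose them, which are type I against type II vHCs and inner against outer cHCs. Cells other than HCs were also compared between the organs, and there the differences of these genes are descriptions with no p.

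The libraries came from whole cochlear and vestibular sensory epithelia of wild-type CBA/J mice aged 22 months, an inbred strain, with both sexes used and 7 to 8 animals pooled into each of the 10 libraries, 5 per organ. All mice were of this 1 age, strain and genotype and received no agent, so that the groups differ only in the organ and, within it, the cell type. Young animals were not analysed here, and no value below is a change with age. RNA of single cells was captured in droplets (10x, 3′ end), and each molecule carries a unique molecular identifier (UMI) against which copies are collapsed. Of the barcodes in replicate 2, 1313 of 1313 in the cochlea and 1633 of 1641 in the vestibule were also in replicate 1. The counts of these 2 replicates differed by less than the sampling noise, so that they were counted as 1 sample, with the mean of both counts, and n was 4 per organ. Each p-value thus rests on sums by pool of mice, not on single cells. Type I and type II HCs of a replicate come from the same pool, as do IHCs and OHCs. The main fits treat these sums as independent.

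HCs convert motion into electrical signals through a bundle of stereocilia. In the cochlea, inner hair cells (IHCs) pass sound signals to the auditory nerve and outer hair cells (OHCs) amplify sound. In the vestibular organs, type I HCs are wrapped by a calyx ending of the nerve, whereas type II HCs are contacted by small boutons. Vestibular HCs keep a kinocilium, a true cilium with a microtubule axoneme, into adult life, whereas mature cochlear HCs lose it.

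Of 17696 cells kept, 148 were named cHCs (71 IHCs and 77 OHCs) and 1757 vHCs (1480 type I and 277 type II HCs), and 598 cells with HC markers were set aside because they also carried markers or leading genes of other cells. Names rest on marker genes and each is to be read as "type I-like", "IHC-like" and so on. The 6 genes were left out of the clustering. Replicates 1, 3, 4 and 5 supplied 24, 78, 14 and 32 cHCs, with no IHC in replicate 1, and 194, 788, 470 and 305 vHCs. The UMIs behind the sums (a mean of both files for replicate 1) ranged from 71762.5 to 409690 in cHCs and from 793303 to 3620351 in vHCs, so that levels in cHCs are the less precise ones. All 6 HC markers, among them Myo7a, Pou4f3 and Tmc1, were detected in the HCs of both organs. Their summed level, in UMIs scaled to a library sum of 1e6 (CPM), was 3809 to 4480 in cHCs and 2978 to 3530 in vHCs. Summed supporting cell markers, all 7 detected in both, were at 124 to 209 CPM in cHCs and 193 to 264 CPM in vHCs, against 2286 to 3563 CPM and 1660 to 3510 CPM in the other cells of the cochlea and vestibule.

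The annotation (GENCODE M21, GRCm38) placed 3 of the 6 genes on chromosome 9. Gm4791 (ENSMUSG00000094893) lies at chr9:46998741-47003860 on the plus strand, with 1 annotated transcript of 3 exons and 1021 exonic bases, and is annotated as protein coding. Gm47775 (ENSMUSG00000111467), at chr9:33296244-33308803 on the plus strand, is annotated as a long intergenic noncoding RNA of 2 exons. Gm1113 (ENSMUSG00000098590), at chr9:35509222-35518269 on the minus strand, is a protein-coding gene of 10 exons, for which RefSeq gives the synonym Vsig10l2.

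The remaining genes lie on 3 other chromosomes. Gm45261 (ENSMUSG00000110100) is at chr1:80449597-80461448 on the minus strand and is annotated as protein coding with 594 exonic bases. 1110017D15Rik (ENSMUSG00000028441), at chr4:41505009-41517333 on the minus strand, has 8 annotated transcripts and codes for protein, and RefSeq lists Cbe1 and Smrp1 as its synonyms. 9230102O04Rik (ENSMUSG00000079602), at chr2:9883041-9889540 on the minus strand, is protein coding in GENCODE but a long noncoding RNA in RefSeq, with the synonym linc_Gata3. It lies within the span of Gata3, a transcription factor of the cochlear epithelium, on the same strand, and 77 of its 935 exonic bases are also exonic in Gata3. A further 412 of these bases are exonic in 4930412O13Rik on the opposite strand. Reads from the bases shared with Gata3 on the same strand cannot be assigned with certainty, which limits the values of 9230102O04Rik.

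RefSeq promoter windows (GRCm38.p6, 250 bases before to 50 bases after a start) were at hand for 3 of the 6 genes, as 4 windows. They are shown because 1110017D15Rik, Gm1113 and Gm4791 all had high levels in vHCs, so that their upstream sequences can be compared. Each line gives the 150 bases before the start, 5′ to 3′ on the gene's strand, and capitals mark the letters of the X-box half-site GTTGCC or its reverse complement GGCAAC, the motif known for RFX factors, which regulate ciliary genes.
1110017D15Rik, downstream start, chr4:41507765-41507914, minus strand: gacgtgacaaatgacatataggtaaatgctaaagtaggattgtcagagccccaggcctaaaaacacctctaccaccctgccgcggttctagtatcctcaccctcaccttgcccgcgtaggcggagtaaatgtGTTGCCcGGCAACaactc
1110017D15Rik, upstream start, chr4:41517334-41517483, minus strand: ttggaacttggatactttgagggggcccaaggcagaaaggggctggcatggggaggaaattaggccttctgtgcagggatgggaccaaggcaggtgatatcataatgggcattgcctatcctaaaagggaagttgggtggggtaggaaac
Gm1113, chr9:35518270-35518419, minus strand: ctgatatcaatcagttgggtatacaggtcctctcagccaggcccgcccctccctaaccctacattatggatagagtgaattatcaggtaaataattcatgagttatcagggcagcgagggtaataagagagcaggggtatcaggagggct
Gm4791, chr9:46998591-46998740, plus strand: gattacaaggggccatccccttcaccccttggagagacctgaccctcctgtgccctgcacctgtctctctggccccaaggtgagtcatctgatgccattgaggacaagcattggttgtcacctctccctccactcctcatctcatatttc

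The downstream start of 1110017D15Rik had both half-sites, which together spelled the full palindrome GTTGCCNGGCAAC, with its first base 18 bases before the start. Searched on both strands, this palindrome was in 14 of the 32851 RefSeq promoter windows of the same length (0.0426%), and the half-site, which the palindrome contains, was in 12.5%. The window of Gm1113 had 1 half-site that began at base 7 when the start is counted as base 1, outside the letters shown, and the other windows had none. The E-box CAGCTG was in 16.3% of all windows and in none of these 4. A match of letters is a description of the sequence and does not show that a factor binds there.

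Gm4791, Gm45261 and Gm47775 were nearly or fully absent from cHCs. Gm4791 had no UMI in any cHC of 4 libraries, and stood at 299, 249, 177 and 281 CPM in the vHCs of replicates 1, 3, 4 and 5 (252 ± 53.8, SD, n = 4). All 4 vestibular libraries were high and all 4 cochlear libraries were at 0. With 3 counts over all cHCs as the floor, pooled Gm4791 was at least 57.7-fold higher in vHCs. Gm45261 was likewise at 0 in every cochlear library, and at 171, 161, 246 and 203 CPM in vHCs (195 ± 38.3, n = 4), at least 44.4-fold higher by the same floor. Gm47775 had a single UMI in cHCs, in replicate 3, and was at 93.9, 146, 181 and 115 CPM in vHCs (134 ± 37.7, n = 4). For these 3 genes the lowest vestibular library was above the highest cochlear one. The share of all genes without such overlap is not given here. In the organ comparison 29% of the genes tested were called, and since this contrast chose the 6 genes nothing is read from their own difference.

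1110017D15Rik and Gm1113 were also far higher in vHCs, but their UMIs were found in cHCs too. 1110017D15Rik was at 927, 864, 907 and 719 CPM in vHCs (854 ± 93.9, n = 4) and at 0, 46.4, 9.52 and 41.6 CPM in cHCs (24.4 ± 23.1, n = 4). The pooled ratio was 24.1 (95% counting interval 16.3 to 37.3). Of the 25 UMIs in cHCs, 19 were of cochlear replicate 3, and without this library, a choice made after seeing the data, the ratio was 42.3 (19.4 to 115). Gm1113 was at 379, 250, 280 and 374 CPM in vHCs (321 ± 65.7, n = 4) and at 0, 24.4, 0 and 8.32 CPM in cHCs (8.18 ± 11.5, n = 4), a pooled ratio of 18.8 (10.5 to 37.8). Here 10 of the 11 UMIs in cHCs were of replicate 3, and without it 1 UMI was left, for a ratio of 87.1 (15.6 to 3440). No cochlear library reached a vestibular one for either gene. These intervals cover counting error only.

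9230102O04Rik had the opposite pattern. It was at 118, 144, 152 and 66.5 CPM in cHCs (120 ± 38.7, n = 4) and had no UMI in any of the 1757 vHCs, so that pooled it was at least 319-fold higher in cHCs. All 4 cochlear libraries were well above the floor of the vHCs, 0.406 CPM.

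**Figure D1:**
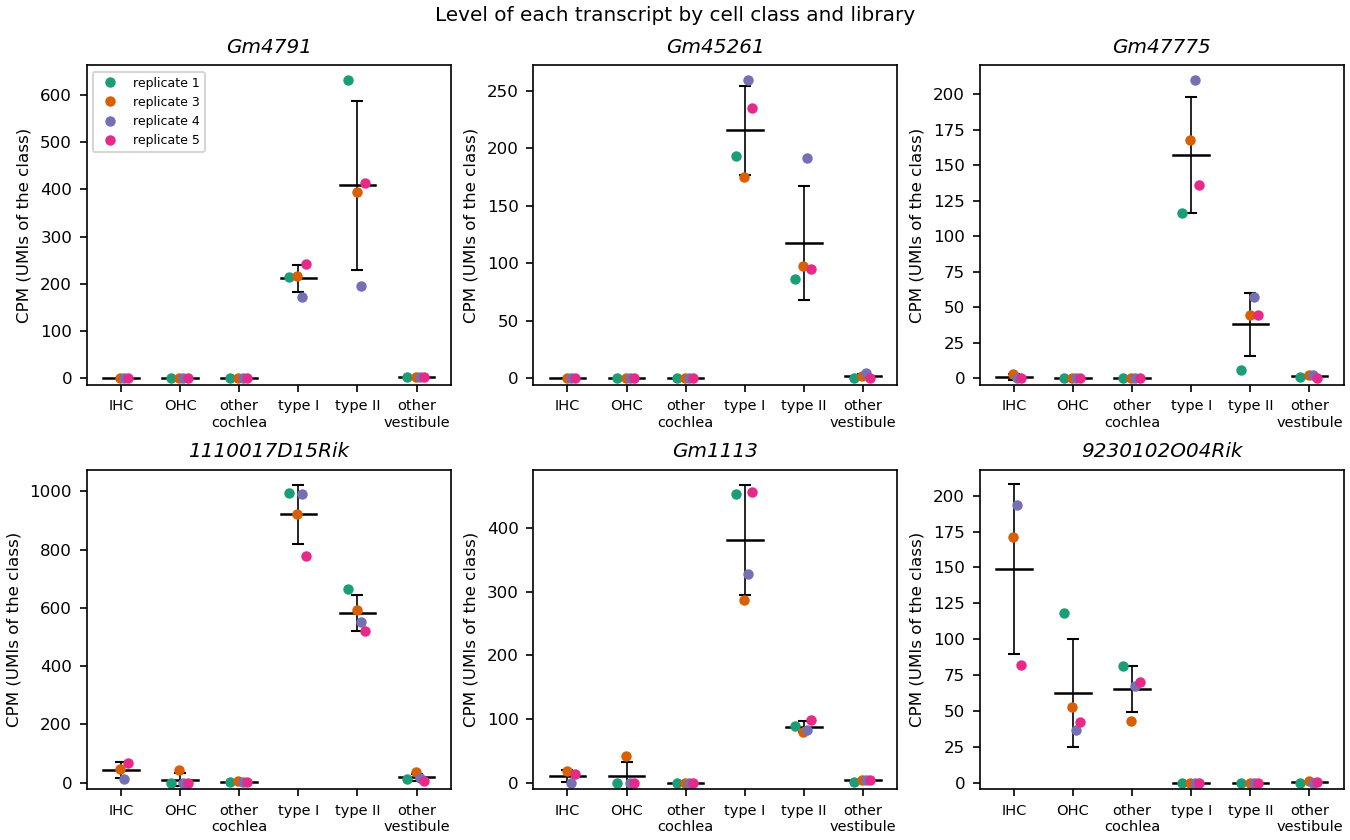
CPM of each transcript (vertical axis, linear) in IHCs, OHCs and other cells of the cochlea and in type I, type II and other cells of the vestibule. Each point is 1 library with at least 5 cells of the class, colours mark the replicate, and the lines are the mean ± SD; 5 of the 6 transcripts sit low in all cochlear classes (at most 68.4 CPM), while 9230102O04Rik is at 0 in both vestibular HC types and present in IHCs, OHCs and other cochlear cells.

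1110017D15Rik had a UMI in 83.6% of type I HCs and 78.7% of type II HCs, against 3.76% of vestibular macrophage-like cells, which should lack it. Median depths were 3978, 4887 and 2766 UMIs. After thinning to 1000 UMIs a cell, the shares became 53.7%, 44.4% and 1.34%. Gm1113 had a UMI in 1012 of 1480 type I HCs (68.4%) and 72 of 277 type II HCs, against 0.538% of macrophage-like cells, and thinned shares of 31.6%, 6.14% and 0.269%.

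The other vestibular transcripts were seen in fewer cells. Gm4791 had a UMI in 39.5% of type I and 55.2% of type II HCs (thinned, 247 of 1480 and 72 of 277 cells), against 1.08% of macrophage-like cells. Gm45261 had one in 26.8% and 22.0% (thinned, 13.8% and 9.39%), and Gm47775 in 399 and 26 of these cells (thinned, 177 and 9), with 0.269% and 0.538% of macrophage-like cells. In cHCs, Gm4791 and Gm45261 had 0 of 148 cells, which allows a share of up to 2.03% at a floor of 3 counts and a median of 3254 UMIs. This limits the share of cells with a UMI, not that of cells that express the gene. 9230102O04Rik had a UMI in 50.7% of IHCs (thinned, 14.1%) and 22.1% of OHCs (thinned, 10.4%), against 0.777% of cochlear macrophage-like cells (thinned, 0.518%), at medians of 4203, 2761 and 2404 UMIs.

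The 5 vestibular transcripts differed between type I and type II HCs, a contrast they were not chosen on. All 5 passed the filter on low counts, and 4 of them (Gm45261, Gm47775, 1110017D15Rik and Gm1113) were higher in type I HCs and 1 (Gm4791) in type II HCs. Over all 7991 genes tested with edgeR's quasi-likelihood test, 17.8% were called at a Benjamini-Hochberg adjusted p under 0.05, 8.11% as higher in type I HCs and 9.69% as higher in type II HCs. The types were named from the expression of the same cells, which raises this share.

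Gm1113 was at 453, 287, 327 and 456 CPM in the type I HCs of replicates 1, 3, 4 and 5 and at 89.8, 78.8, 83.1 and 98.6 CPM in their type II HCs, groups that do not overlap. A lack of overlap is a description of these values, and the share of all genes that have none is not given here. The log2 difference, type I minus type II, was 2.20 ± 0.19 (SE, edgeR adjusted p = 3.62e-09). Gm47775 did not overlap either, at 116, 168, 210 and 136 CPM in type I HCs and 6.19, 44.8, 57.5 and 44.5 CPM in type II HCs (log2 difference 1.97 ± 0.26, edgeR adjusted p = 2.53e-06). Its 6.19 CPM in the type II HCs of replicate 1 is 1 UMI, below the floor of 3 counts there, 18.6 CPM. 1110017D15Rik had no overlap as well, at 994, 923, 992 and 779 CPM in type I HCs and 665, 592, 553 and 521 CPM in type II HCs (log2 difference 0.74 ± 0.15, edgeR adjusted p = 0.000906).

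Gm45261 and Gm4791 had groups that overlap between libraries, though each library gave the same direction. Gm45261 was at 193, 175, 259 and 235 CPM in type I HCs and 86.7, 97.4, 192 and 95.4 CPM in type II HCs, higher in type I HCs in 4 of 4 libraries (log2 difference 0.93 ± 0.20, edgeR adjusted p = 0.00156). Gm4791 was at 214, 218, 173 and 242 CPM in type I HCs and at 631, 394, 195 and 413 CPM in type II HCs, higher in type II HCs in 4 of 4 libraries (log2 difference -0.83 ± 0.21, edgeR adjusted p = 0.00678). Replicate 4 had the smallest difference for both. With every set-aside subcluster kept, Gm4791 was no longer called (-0.13 ± 0.20, edgeR adjusted p = 0.675), while the other 4 were, Gm45261 at 1.72 ± 0.21. Summed supporting cell markers, of which Sox2 also served to name the types, moved with this contrast, at 677 to 943 CPM in type II and 48.5 to 124 CPM in type I HCs, and their part in it was not tested.

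The size of the difference of Gm45261 and Gm47775 depended on 1 small group of type II HCs, in which both genes were high. The type I subclusters that were also high in both genes were kept. Leaving out this type II group thus had to raise the difference, and the rise is only a description. Without type II subcluster 8 (62 cells, 56.5% of them with a UMI of Ocm), a choice made after seeing the data, the log2 difference was 4.68 ± 0.32 for Gm45261 and 4.82 ± 0.40 for Gm47775. It changed little for Gm4791 (-0.75 ± 0.20), Gm1113 (2.16 ± 0.20) and 1110017D15Rik (0.91 ± 0.16). With cells named one by one from their markers, it was 5.17 ± 0.54 for Gm47775 and 4.11 ± 0.37 for Gm1113.

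**Figure D2:**
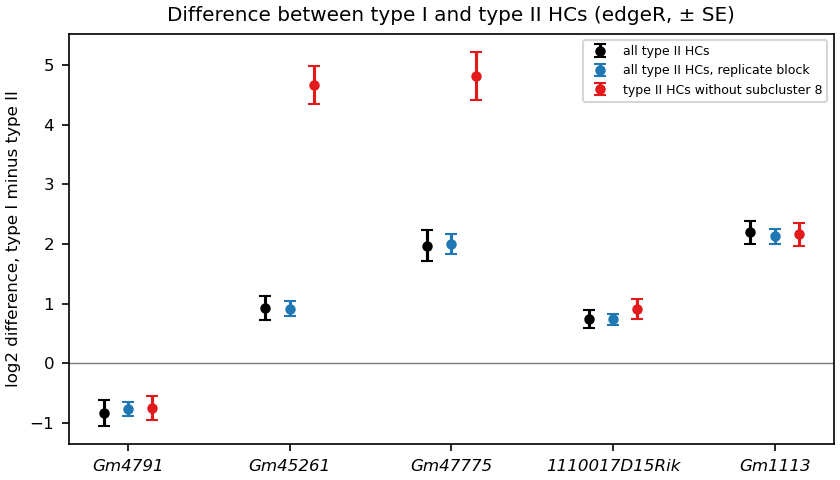
Log2 difference between type I and type II HCs (vertical axis, positive where type I was higher) for the 5 vestibular transcripts, with the SE from edgeR as error bars. Black points use all type II HCs, blue points add the replicate number as a block, and red points leave out type II subcluster 8; the red points of Gm45261 and Gm47775 stand at 4.68 and 4.82, far above their black points at 0.93 and 1.97.

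Within the vHCs, subclusters built without the 6 genes held them at very different levels. The values that follow are descriptions with no test, since the subclusters were built from the expression of the same cells. Type I HCs formed 5 subclusters. The largest (subcluster 0, 585 cells) was led by Mgat4c, Bpifa5 and Rgs9, subcluster 1 (328 cells) by the calcium-binding protein genes S100a6 and S100a13 and by Fndc1, with Gm45261 and Gm47775 among its 10 leading genes, and subcluster 6 (206 cells) by Ano2, Cntnap5a and Olfm4. Of the cells of subcluster 6, 82.0% had a UMI of Ocm, which codes for oncomodulin, a calcium buffer known from type I HCs of the central and striolar zones, against at most 9.76% in the other type I subclusters. Type II HCs formed subcluster 5 (215 cells), led by Mogat1, Fmn1 and Rasd2, and subcluster 8 (62 cells), led by Zp3, Slc8a1 and Pkhd1l1.

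Gm4791 was nearly absent from the Ocm-positive type I HCs. In subcluster 6 it was at 0, 2.48, 0 and 0 CPM in replicates 1, 3, 4 and 5, while the other type I subclusters ranged from 148 ± 48.7 CPM (subcluster 2, n = 4) to 321 ± 66.4 CPM (subcluster 1, n = 4). No library of another type I subcluster with at least 5 cells was below 87.5 CPM. In type II HCs it was at 379 ± 134 CPM in subcluster 5 and 486 ± 289 CPM in subcluster 8, ranges that overlap.

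Gm45261 split the type I and the type II HCs alike. It was at 693 ± 211 CPM in subcluster 1 and 254 ± 69.7 CPM in subcluster 6, but at 7.63 ± 0.761 CPM in the largest type I subcluster. Among type II HCs it was at 421 ± 136 CPM in subcluster 8 and 7.11 ± 4.94 CPM in subcluster 5 (n = 4 each). The low and the high subclusters did not overlap in any library. Subcluster 2, whose cells had a median of 1601 UMIs, varied between libraries from 5.47 to 464 CPM.

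Gm47775 followed Gm45261 with another order of levels. It was highest in subcluster 6, at 375, 472, 405 and 408 CPM, followed by 255, 336, 361 and 237 CPM in subcluster 1, and the libraries of these subclusters do not overlap. It was at 24.3 ± 14.7 CPM in the largest type I subcluster and 5.85 ± 6.63 CPM in type II subcluster 5. Subcluster 8 held it at 142 ± 101 CPM, with replicate 1, of 8 cells, at 20.7 CPM.

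1110017D15Rik and Gm1113 were present in all subclusters. 1110017D15Rik ranged from 452 ± 229 CPM in subcluster 2 to 1193 ± 210 CPM in subcluster 1. Gm1113 ranged from 323 ± 53.9 to 610 ± 208 CPM over the type I subclusters, with the highest value in subcluster 2, and was at 88.7 ± 6.58 and 90.9 ± 36.7 CPM in the type II subclusters. For Gm1113, the type II libraries all lay below those of type I, and the type II subclusters overlapped each other.

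**Figure D3:**
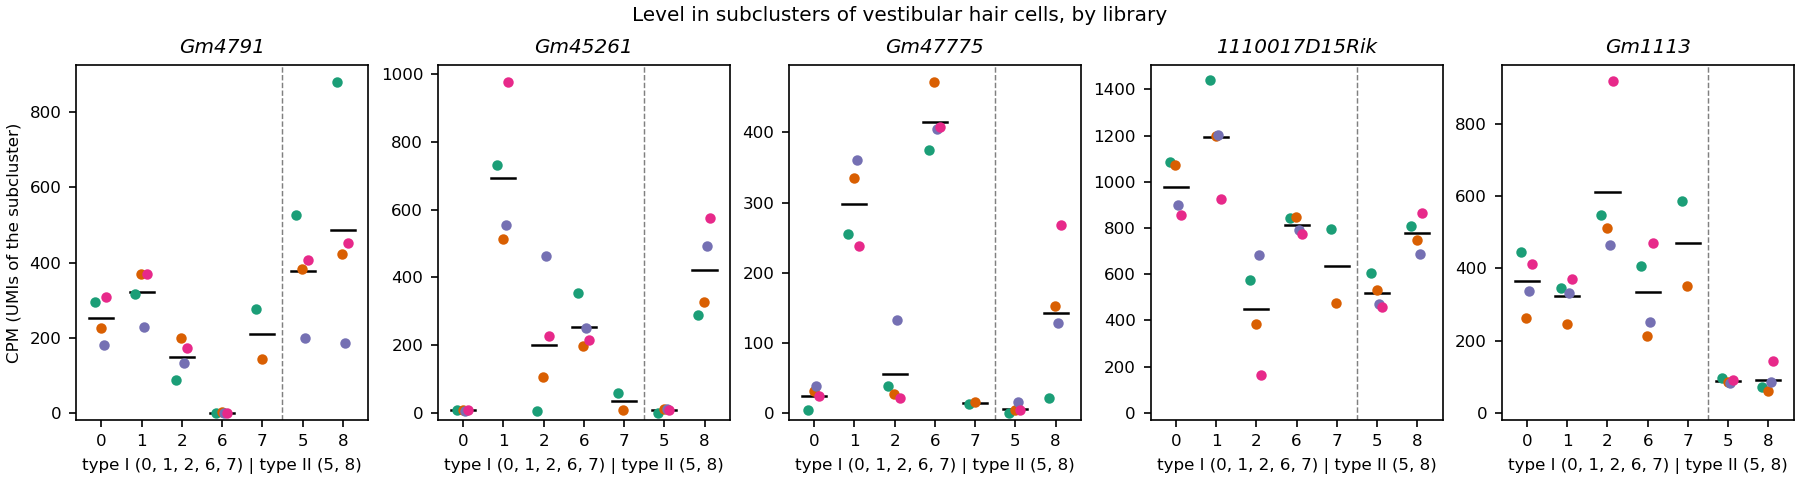
CPM of the 5 vestibular transcripts (vertical axis, linear, scaled per panel) in the type I subclusters 0, 1, 2, 6 and 7 and, right of the dashed line, the type II subclusters 5 and 8. Points are libraries with at least 5 cells in the subcluster, colours mark the replicate as in the plot by cell class, and lines are means; Gm4791 is near 0 only in subcluster 6, and Gm45261 and Gm47775 are high in subclusters 1, 6 and 8.

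Detection in single cells was compared within type I HCs with each cell thinned to 1000 UMIs. In cells with a UMI of Gm45261, Gm47775 had one in 35.3%, 23.8%, 29.6% and 16.7% of cells in replicates 1, 3, 4 and 5, against 5.22%, 9.44%, 14.1% and 6.94% of the cells without it. The direction was the same in 4 of 4 libraries, with 17 to 80 cells that had a UMI of Gm45261. Among all pairs of the vestibular transcripts, no other pair had the same direction in every library. Both genes were also high in type I subclusters 1 and 6 and low in subcluster 0. Whether they are found together beyond these subcluster levels was not tested. For Gm4791 and Gm47775 the direction differed between libraries, as Gm4791 was found in 15.4%, 22.7%, 10.3% and 19.0% of the cells with a UMI of Gm47775 and in 15.9%, 17.4%, 15.5% and 16.9% of those without. Cells of 1 library share their source, and no p is given.

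In the cochlea, 9230102O04Rik was the only one of the 6 genes with UMIs in HCs of all 4 libraries. It was at 171, 193 and 82.1 CPM in the IHCs of replicates 3, 4 and 5 (149 ± 58.9, n = 3) and at 118, 53.0, 36.5 and 42.4 CPM in the OHCs of replicates 1, 3, 4 and 5 (62.6 ± 37.9, n = 4). IHCs were higher than OHCs in each of the 3 libraries that had both. The OHC values of replicates 4 and 5 rest on 1 and 2 UMIs, below the floors of 3 counts there, 109 and 63.6 CPM. The groups overlap through the OHCs of replicate 1. No member passed the filter on low counts in the comparison of IHCs with OHCs, in which 31.6% of the 1479 genes tested were called. Without the filter, the log2 difference, IHCs minus OHCs, was 1.45 ± 0.45 (edgeR adjusted p = 0.0277), and it was 1.36 ± 0.39 with the set-aside cells kept (edgeR adjusted p = 0.0147), 1.07 ± 0.32 with cells named one by one (edgeR adjusted p = 0.0579) and 1.22 ± 0.50 without replicate 5 (edgeR adjusted p = 0.0908). The call thus differed between these settings, and the cHCs held 91.5 UMIs of the gene in all.

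The few UMIs of vestibular transcripts in cHCs came from few cells. 1110017D15Rik had UMIs in 6 of 148 cHCs, Gm1113 in 7 and Gm47775 in 1. In replicate 3, the 4 cHCs with a UMI of 1110017D15Rik held 24 of the 30 UMIs that the 5 vestibular transcripts had in the 78 cHCs of that library. Of the 24, 19 were of 1110017D15Rik itself, which picked these cells, so that these 19 were in them by definition. The 24 of 30 is thus not read as a concentration. These 4 cells held 3.81% of all UMIs there. The same 4 cells held 50 of 124 UMIs of the axoneme and kinocilium genes listed below, 13 UMIs of Otof, which codes for a calcium sensor of synaptic release, and none of 9230102O04Rik, Gata3, Slc17a8 (the glutamate transporter of IHCs) or Slc26a5 (prestin, the motor protein of OHCs). The other 74 cells held 59, 122, 650 and 133 UMIs of these 4 genes. These cells were found after the values had been seen. What they are was not tested.

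Outside the HCs, 2 of the 6 members, 9230102O04Rik and 1110017D15Rik, passed the filter on low counts. 9230102O04Rik was at 81.0, 42.7, 67.2 and 70.1 CPM in the other cells of the cochlea and at 0, 0.939, 0 and 0.219 CPM in those of the vestibule. It had 13 UMIs in the 8151 other cells of the vestibule, 12 of them in replicate 3. Since it passed the filter through the cochlear libraries alone, its difference is given as a description with no p. The fitted log2 difference, cochlear minus vestibular, was 6.80 ± 0.49, and it was 8.98 without vestibular replicate 3. Within the cochlea it was not limited to HCs, since its level in OHCs (36.5 to 118 CPM) overlapped that of the other cochlear cells as a whole (42.7 to 81.0 CPM).

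Its UMIs outside the HCs were concentrated in 6 of 28 clusters. These 6 clusters, of 2121 cells, held 1461 of the 1538 UMIs, at 53.0 to 164 CPM with libraries pooled, while none of the 22 others was above 37.5 CPM. Each of the 6 had 2 to 6 of the 7 supporting cell markers enriched, as did cluster 13, led by Fxyd2 and Kcnk2, with 2 of them and a level of 2.22 CPM. Cluster 7, led by Gm48242 and Fbp2, was at 164 CPM, cluster 3, led by Epyc, which codes for a proteoglycan of the extracellular matrix, at 162 CPM, cluster 8, led by Pcdh17 and Agr3, at 148 CPM, and cluster 0, led by Dgkb and with Sox2 and Lfng among its leading genes, at 141 CPM. Cluster 21, led by Tectb and with Fgfr3 among its leading genes, was at 101 CPM, and cluster 23, led by Lmo3 and Rubie, at 53.0 CPM. Cluster 0 was at 147, 123, 174 and 167 CPM in replicates 1, 3, 4 and 5, inside the range of the IHCs (82.1 to 193 CPM). Cochlear macrophage-like cells were at 6.06 CPM.

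1110017D15Rik was lower in the other cells of the cochlea than in those of the vestibule. It was at 1.80, 4.58, 1.30 and 2.32 CPM in the cochlea and 14.3, 36.2, 16.8 and 5.24 CPM in the vestibule, groups that do not overlap. It passed the filter through the vestibular libraries alone, so that this difference too is given as a description with no p. The fitted log2 difference, cochlear minus vestibular, was -2.85 ± 0.57. Over all 13668 genes tested, 15% were called, 8.11% as higher in the cochlea and 6.93% as higher in the vestibule. Of its 596 UMIs in vestibular cells other than HCs, 45.6% were in cluster 26, of 108 cells, led by AU040972, Ccdc153 and Sntn, the last of which codes for sentan, a protein of the tip of motile cilia. That cluster was at 422 CPM, below the libraries of type II HCs (521 to 665 CPM), and 104 of its cells were of replicate 3. Without it, a choice made after seeing the data, the log2 difference was -2.27 ± 0.45. With libraries pooled, the other 24 vestibular clusters were at 35.2 CPM or less, and the median of all 25 was 13.3 CPM. Vestibular macrophage-like cells, which should lack the gene, were at 13.6 CPM (22 UMIs), and cochlear ones at 0.866 CPM (1 UMI). The values outside cluster 26 are therefore not read as expression, and the part of free RNA in this difference was not tested.

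In the cochlea, the highest level of 1110017D15Rik outside the HCs was in cluster 11, of 226 cells with all 4 neuron markers enriched, at 35.1, 33.3, 19.8 and 25.5 CPM in replicates 1, 3, 4 and 5. That cluster held 87 of its 106 UMIs in cochlear cells other than HCs.

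Gm4791, Gm45261, Gm47775 and Gm1113 were close to absent outside the HCs. In the other cells of the vestibule they were at 2.71 ± 0.699, 1.82 ± 1.93, 1.39 ± 1.10 and 3.48 ± 1.29 CPM (n = 4), with no cluster above 19.2 CPM when libraries were pooled. In 7042 other cells of the cochlea, Gm45261, Gm47775 and Gm1113 had no UMI (up to 0.0426% of cells) and Gm4791 had 5. The part of free RNA in the low vestibular values was not tested.

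**Figure D4:**
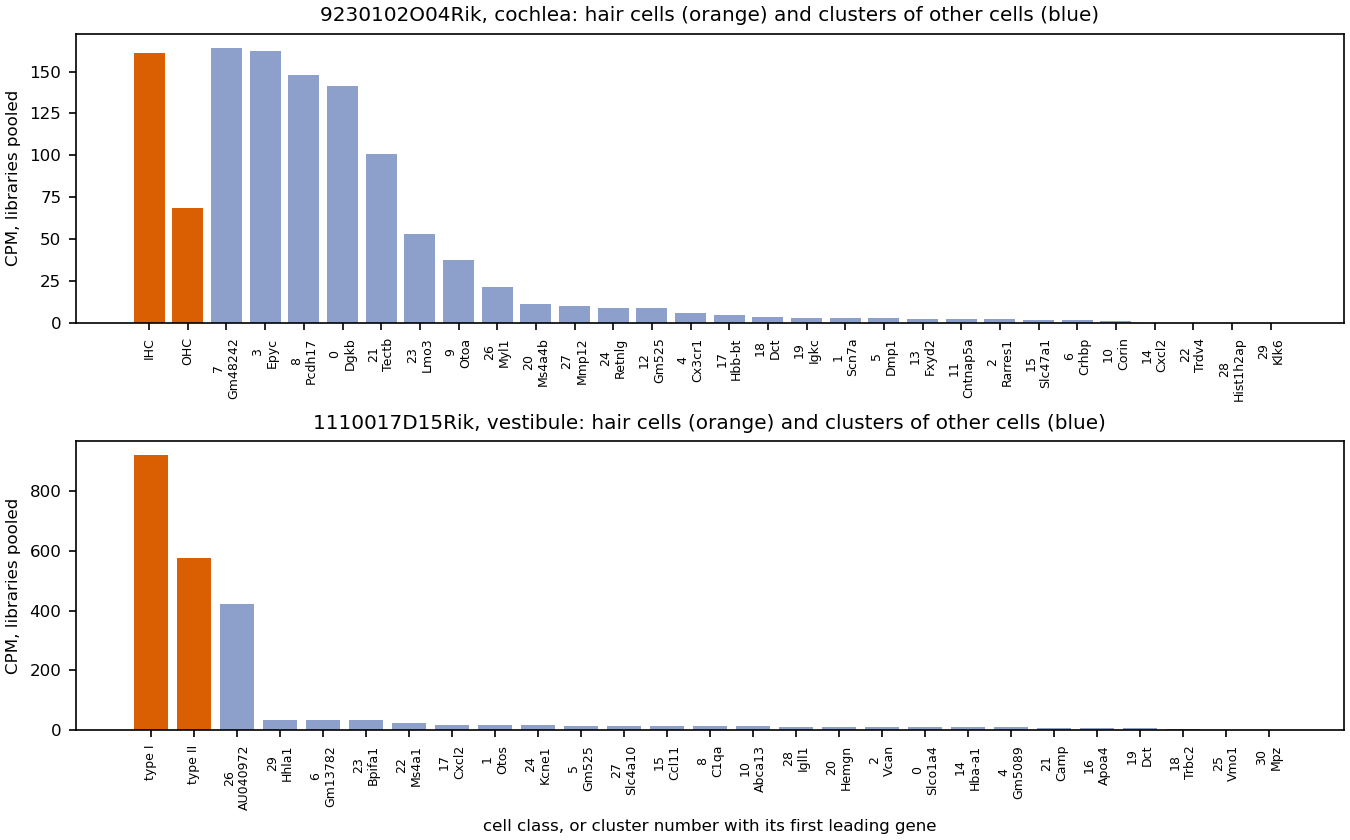
CPM, with libraries pooled, of 9230102O04Rik in the cochlea (top) and 1110017D15Rik in the vestibule (bottom), in HC types (orange) and in each cluster of other cells (blue), ordered by level and named by number and first leading gene; bars start at 0. For 9230102O04Rik, 6 clusters stand between 53.0 and 164 CPM beside IHCs and OHCs, and for 1110017D15Rik only cluster 26, at 422 CPM, comes near the HC types.

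The levels of each gene were ordered over the 6 classes by their means. For 9230102O04Rik, IHCs (149 ± 58.9 CPM, n = 3) were followed by other cochlear cells (65.3 ± 16.2) and OHCs (62.6 ± 37.9), of which the last 2 overlap. For 1110017D15Rik, type I HCs (922 ± 101 CPM) were followed by type II HCs (583 ± 62.1), IHCs (43.0 ± 28.0, n = 3), other vestibular cells (18.1 ± 13.0), OHCs (10.6 ± 21.2) and other cochlear cells (2.50 ± 1.45), and the last 4 of these overlapped their neighbours in this order. For Gm1113, type I HCs (381 ± 86.8 CPM) were followed by type II HCs (87.6 ± 8.60), and then by IHCs, OHCs and other vestibular cells, whose values overlap. For Gm4791, type II HCs (408 ± 178 CPM) and type I HCs (212 ± 28.5) overlapped and stood above all other classes. For Gm45261 and Gm47775, type I HCs (215 ± 38.6 and 158 ± 40.9 CPM) were followed by type II HCs (118 ± 49.5 and 38.3 ± 22.2), the former overlapping and the latter not.

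Some annotated neighbours of the 6 genes differed in level between the organs. They were picked for their place beside genes that this contrast chose. Each of those named met the filter on low counts only through the organ where it was higher. Their differences between the organs are therefore descriptions with no p. Gata3, which overlaps 9230102O04Rik, was at 732, 298, 448 and 507 CPM in cHCs and at 0.207 ± 0.414 CPM in vHCs. In vHCs 1 of 4 libraries had any UMI (log2 difference, cochlear minus vestibular, 9.78 ± 0.41). Outside the HCs, Gata3 was at 961, 239, 384 and 362 CPM in the cochlea, and 13.8, 17.4, 7.26 and 4.59 CPM in the vestibule. 4930412O13Rik, on the other strand, was at 4.46 ± 5.17 CPM in cHCs. Gata3 and 9230102O04Rik thus shared their organ and their presence outside the HCs, and whether overlapping reads contribute to this was not tested.

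Dock10, a guanine nucleotide exchange factor that lies 39624 bases from Gm45261, was at 148 ± 12.9 CPM in vHCs and 8.28 ± 6.87 CPM in cHCs (log2 difference -5.02 ± 0.51). It was not called between type I and type II HCs (-0.33 ± 0.16, edgeR adjusted p = 0.199), where Gm45261 was. The noncoding Gm31698, 82086 bases from Gm4791, was also higher in vHCs (-2.58 ± 0.67), but in type I HCs (3.19 ± 0.46), whereas Gm4791 was higher in type II HCs. Cdon, a cell surface receptor 1569 bases from Gm1113, was higher in vHCs (-2.21 ± 0.54) and in type I HCs (1.14 ± 0.33, edgeR adjusted p = 0.0154), as Gm1113 was. AI464131, 1932 bases from 1110017D15Rik, was higher in cHCs, at 50.8 ± 29.5 against 14.6 ± 3.50 CPM (1.55 ± 0.38), the direction opposite to 1110017D15Rik. Of the 15 neighbours, these 5 passed the filter, and no share of calls among them is set against that over all genes.

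The genes most like each member were taken by Pearson's r of log2(CPM + 1) over 31 sums of HC types, macrophage-like cells and other cells by library, among 12095 genes. These sums share libraries and differ mainly by organ and by HC identity, so that r is a description and no p is given. For Gm4791 they were Tekt2 (r = 0.988), a tektin of the axoneme, Kirrel3os (0.981) and Ccdc81 (0.981). For Gm45261 they were Tafa2 (0.994), Lrrc43 (0.990) and 6530403H02Rik (0.983), and for Gm47775 6530403H02Rik (0.970), Gm13631 (0.966) and Cfap47 (0.964). For 1110017D15Rik they were Dnajb13 (0.964), a component of the radial spokes of motile cilia, 1700001C02Rik (0.949) and Cfap126 (0.944), and for Gm1113 Pifo (0.959), a ciliary protein, Fam81b (0.957) and Myo3b (0.954), a myosin of stereocilia. For 9230102O04Rik they were Rorb (0.935), a nuclear receptor, Gata3 (0.931) and Efhd1 (0.863). Among the members themselves, Gm45261 had r = 0.971 with Gm4791 and 0.963 with Gm47775, and 1110017D15Rik had r = 0.930 with Gm1113.

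Because genes of axonemes stood among the most similar ones, the list of axoneme and kinocilium genes is given beside the members. Of its 22 genes, 21 were in the tables, and all 21 passed the filter and were higher in vHCs. Over all genes tested, 17.5% were called in that direction. The median log2 difference was -4.84 for the list and -0.09 over all genes. The list was chosen with earlier results of these data known, and it includes Tekt2, Cfap126 and Pifo, named above as most similar. Most of its genes passed the filter through the vHCs alone. Its difference between the organs is therefore a description with no p. Cfap43, a protein of the axoneme of motile cilia, was at 409 CPM in vHCs and 1.22 CPM in cHCs (-7.08 ± 0.46), and Drc1, of the dynein regulatory complex of cilia, at 318 and 6.90 CPM (-5.18 ± 0.37). In the type comparison, 8 of 21 were called as higher in type I HCs and 2 as higher in type II HCs (47.6% in all), as 1110017D15Rik and Gm1113 were in the former and Gm4791 in the latter direction. Cfap126 was higher in type I HCs (1.02 ± 0.16, edgeR adjusted p = 1.82e-05), as was Rsph4a (1.53 ± 0.19, edgeR adjusted p = 1.10e-06). Cfap45, a microtubule inner protein of cilia, was at 338 CPM in type II HCs and 14.2 CPM in type I HCs (-4.55 ± 0.20). It met the filter on low counts only through the type II HCs, so that no p is given for it. Cfap52 was also higher in type II HCs (-1.79 ± 0.21, edgeR adjusted p = 3.90e-07). The summed level of Foxj1, Mcidas and Ccno, markers of other ciliated cells, was 111 to 169 CPM in vHCs (3 of 3 detected) and 0 to 16.6 CPM in cHCs (1 of 3 detected), and its part in these differences was not tested.

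Other genes known only by a Gm or Rik symbol differed between the organs as well. Of 11042 such genes, 296 passed the filter, and 43 were higher in cHCs and 85 in vHCs, which is 43.2% against the 29% called over all genes. Their median log2 difference was -0.45, against -0.09 over all genes. D630023F18Rik was at 493 CPM in vHCs and 24.2 CPM in cHCs (-4.11 ± 0.32, edgeR adjusted p = 2.38e-09). Gm45716 was at 1586 CPM in cHCs and 13.3 CPM in vHCs (6.78 ± 0.48), and 1700001K23Rik at 210 and 7.01 CPM (5.10 ± 0.31). Gm45716 and 1700001K23Rik met the filter on low counts through the cHCs alone, so that their differences are descriptions with no p. Between type I and type II HCs, 27 of 330 were called as higher in type I HCs and 40 as higher in type II HCs, or 20.3%, against 17.8% over all genes.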

How the data were processed

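Single-cell RNA of 5 cochlear and 5 vestibular libraries was used. The authors deposited filtered matrices of UMI counts per gene and cell, made with Cell Ranger 5.0.1 (replicates 1 and 2, per the file headers) or 6.1.2 on the mm10 genome, and the submitters' processing notes also name Seurat. The annotation release is not given in the sources used here, so positions are from GENCODE M21. Cell Ranger collapses UMIs, so that values count molecules near the 3′ end.

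Kept cells had 200 or more genes, 1000 or more UMIs and a mitochondrial share under 25%. Counts of replicates 1 and 2 were averaged per cell and the sums rounded for testing. Cells were clustered per organ in Seurat 5.3.0 (2000 variable genes without the 6 members, 30 components, resolution 1) and clusters with at least 3 of 6 HC markers enriched were clustered again (resolution 0.5). Subclusters were named from markers, without Vsig10l2 among those of type I HCs, since RefSeq gives this symbol as a synonym of the member Gm1113. No doublet caller was run. Subclusters with at least 3 enriched markers of another cell type, or at least 5 of 10 leading genes higher in other cells, were set aside (598 cells), by rules set after the clusters had been seen.

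Sums of UMIs per library and class, each over 5 or more cells, were compared in edgeR 4.0.16 in R 4.3.3 (TMM, filterByExpr, quasi-likelihood test, Benjamini-Hochberg over all genes tested, 0.05). On simulated data with 200 genes changed by a log2 of 2, this recovered 100% in the comparison of type I with type II HCs (7881 genes) and 99.5% in that of other cells (13909 genes), where 6.54% and 3.40% of the calls were on genes that had not been changed (5.21% in that of cHCs with vHCs). Shares and exact intervals came from Python 3.11.15 with scipy 1.17.1, and shares at a fixed depth from cells thinned to 1000 UMIs, from the file of replicate 1. Type I and type II HCs of a number come from 1 library, so that the numbers pair them, and their deviations correlated at 0.189 to 0.288. The same holds for IHCs and OHCs (-0.015 to 0.184). Alternatives were DESeq2 1.42.0, RLE scaling, no filter, a replicate block, a mitochondrial limit of 10%, naming by cell, keeping set-aside cells, replicate 1 alone, and leaving out each replicate. The named genes were the 6 members, their annotated neighbours, the 3 genes most like each, and up to 3 genes of each list and direction with the smallest adjusted p. Members and lists were chosen with earlier results of these data known.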

Additional observations from a re-analysis of the deposited data

Results flagged for a closer look

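Within groups of 4 libraries, 1 library stood apart from the others in 5 of 22 groups checked by Dixon's gap ratio. The usual chance rate of about 1 in 20 groups does not hold where only 1 library has a UMI, since the ratio is then 1 by arithmetic. The count of flagged groups is therefore not set against it. Gm45261 in type II HCs had a gap ratio of 0.898, with replicate 4 at 192 CPM and the others at 86.7 to 97.4 CPM. 1110017D15Rik in OHCs and Gm1113 in OHCs each had a ratio of 1, with replicate 3 at 42.4 CPM (4 UMIs) and the others at 0. The floors of 3 counts in replicates 1, 4 and 5 were 41.8, 109 and 63.6 CPM, so that a level like that of replicate 3 could go unseen there. Gm4791 in other cells of the cochlea also had a ratio of 1, with replicate 3 at 0.260 CPM (5 UMIs) and the others at 0. Gm1113 in other cells of the vestibule had a ratio of 0.968, with the lowest library at 1.53 CPM and the others at 4.07 to 4.15 CPM.

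The 598 set-aside cells, which were left out of the comparisons unless stated, held the members as well. Pooled over libraries, the vestibular ones were at 172 CPM for Gm4791, 49.1 CPM for Gm45261, 55.7 CPM for Gm47775, 486 CPM for 1110017D15Rik and 116 CPM for Gm1113. The 82 cochlear ones were at 180 CPM for 9230102O04Rik, 21.2 CPM for 1110017D15Rik and 5.19 CPM for Gm1113. For 9230102O04Rik the libraries of these cells ranged from 150 to 206 CPM. These cells were set aside for their enriched supporting cell markers or the leading genes they shared with other cells, and what they are was not tested.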

How the results depend on the processing

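Of 99 values under the alternatives of the members' log2 differences that were fitted between type I and type II HCs or between other cells, 98 kept their direction and their side of the threshold, and Gm4791 in type I against type II HCs lost its call with set-aside cells kept (-0.13, from -0.83). For 9230102O04Rik and 1110017D15Rik between other cells, which are given with no p, only the direction is read. Keeping set-aside cells cannot change the sums of other cells, and it repeated the main values of both genes (6.80 and -2.85). Without each replicate in turn, Gm4791 ranged from -0.97 to -0.62, with edgeR adjusted p of 0.000633 to 0.0490. 9230102O04Rik in IHCs against OHCs, which failed the filter, had edgeR adjusted p of 0.0147 to 0.0908 over the alternatives that gave a value. Of the mean levels, 21 moved by more than the SD between libraries and 261 did not, and of the shares of cells 25 moved and 11 did not. Counts of called genes moved more. With under 10% mitochondrial UMIs, the comparison of cHCs with vHCs gave 1145 calls (346 higher in cHCs) in place of 2215 (878), and that of IHCs with OHCs 116 in place of 468. With cells named one by one, type I against type II HCs gave 708 calls (374 higher in type I HCs) in place of 1422 (648), and IHCs against OHCs 264. With set-aside cells kept, the former gave 2807, and without the filter the latter gave 771 (489 higher in IHCs, against 215 of 468). Leaving out single replicates gave 877 to 1539 calls for type I against type II HCs, the lowest without replicate 3. The cause of these shifts was not tested. The replicate block changed no member's call between type I and type II HCs. It gave 2017 calls in that comparison and 393 for IHCs against OHCs, both paired by library. In the other comparisons the numbers were only shared, with correlations of same-numbered libraries from -0.028 to 0.235, and the block gave 2077 calls for cHCs against vHCs and 2057 for other cells. The few cHCs limit the depth there.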
